A study of Mus musculus with 2 samples.

Results

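A set of 9 genes, grouped here as mesothelial surface genes, was followed across the cell types of the fetal mouse testis. The genes, *Upk3b*, *Upk1b*, *Krt19*, *Podxl*, *Muc16*, *Msln*, *Dpp4*, *Gpm6a* and *Tmem132d*, encode surface proteins or a keratin. They were taken by symbol from the gene table, where each matched 1 row, so they make up 9 of the 32285 genes measured. Whole testes of male embryos carrying *Nr5a1-cre* and *Rosa-tdTomato* were frozen at E14.5, in mid-gestation, and their nuclei were profiled by 10x multiome, which reads the RNA of a nucleus together with its open chromatin, found by where a transposase cuts (ATAC). *Nr5a1-cre* is a transgene that drives Cre recombinase in somatic cells of the gonad, and *Rosa-tdTomato* is a fluorescent reporter that Cre switches on. There was 1 genotype and no control group. Each assay has 1 library, and the sources used here do not give how many embryos went into it. No value below therefore has a replicate, and no test between animals was possible. Intervals are exact 95% intervals that cover counting error only, except that those for pairs of genes hold the expected number fixed.

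The fetal testis is covered by the coelomic epithelium, a mesothelium that lines the body cavity and later forms the outermost layer of the tunica albuginea. Before and during sex determination, dividing cells of this epithelium enter the gonad and contribute to its somatic lineages. Mesothelial cells are flattened epithelial cells with keratins in their cytoskeleton and a coat of sialomucins and other glycoproteins that keeps apposed organs from sticking to each other. *Upk3b* and *Upk1b* encode uroplakins, membrane proteins first known from the bladder lining. *Krt19* encodes a type I keratin. *Podxl* encodes podocalyxin, an anti-adhesive sialomucin that is also made by podocytes and blood vessels. *Muc16* encodes the mucin CA125 and *Msln* encodes mesothelin, a lipid-anchored protein that binds it. *Dpp4* encodes a membrane-bound dipeptidyl peptidase, *Gpm6a* a membrane glycoprotein of the proteolipid family and *Tmem132d* a single-pass membrane protein.

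The matrix held 9833 barcodes, of which 7197 were kept as nuclei, with a median of 7949 RNA molecules (UMIs) per nucleus and 77166216 UMIs in all. Clusters were made from both assays without the 9 genes and without the 40 peaks in them or within 10 kb. The counts of these genes and peaks thus had no part in the grouping. Other genes that overlap the 9 were not left out, such as *Gm13561* on the strand opposite *Dpp4*. The 13 clusters took 12 class names from other marker genes. The class of interest, called surface epithelium-like, held 547 nuclei or 7.60% of those kept (interval 6.998% to 8.24%). Its naming markers were higher there than in all other nuclei together, by 11.5 times for *Aldh1a2*, 13.0 times for *Pdgfc*, 16.8 times for *Lrrn4*, 18.1 times for *Bnc1* and 9.34 times for *Rspo1*. Of these 5, 4 were highest in this class, whereas *Pdgfc* was highest in the supporting-like class, a group of 82 nuclei led by *Tbx1* and *Pax8*. Median depth was 7821 UMIs in surface epithelium-like, 15617 in germ-like and 9858.5 in Leydig-like nuclei, and the last 2 serve below as the measure of background. Free RNA was not removed.

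Sequences are shown for the places where the chromatin differed most between surface epithelium-like and other nuclei, and for 1 promoter where it differed little. The RefSeq promoter table (GRCm38.p6) held 4 of the 9 genes, *Upk3b*, *Dpp4*, *Muc16* and *Gpm6a*, and *Upk1b*, *Krt19*, *Podxl*, *Msln* and *Tmem132d* are named only. Of *Upk3b* and *Dpp4* the 250 bases before the start are printed 5′ to 3′ on the strand of the gene, which are chr5:136038246-136038495 on the plus strand and chr2:62412232-62412481 on the minus strand. The other 3 stretches are the middle 250 bases of called peaks, read from the RefSeq genome of the same build on the plus strand. They lie at chr11:100168047-100168296 in intergenic sequence upstream of *Krt19*, at chr16:38793317-38793566 in an intron of *Upk1b* and at chr5:128418216-128418465 in an intron of *Tmem132d*. Capitals mark matches, on either strand, to any of 6 short motifs. Nuclear receptors are known to bind AGGTCA and Sp factors GGGCGG. Factors of the GATA family are known to bind AGATAA, those of the AP-1 family TGAGTCA and those of the TEAD family GGAATG. The last motif was the core promoter element TATAAA. No matches overlapped.

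Upk3b promoter: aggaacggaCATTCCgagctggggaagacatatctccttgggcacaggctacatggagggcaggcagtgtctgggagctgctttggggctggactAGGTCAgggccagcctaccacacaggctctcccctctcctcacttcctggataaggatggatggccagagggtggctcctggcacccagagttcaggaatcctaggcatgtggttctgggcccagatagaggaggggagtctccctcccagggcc
Dpp4 promoter: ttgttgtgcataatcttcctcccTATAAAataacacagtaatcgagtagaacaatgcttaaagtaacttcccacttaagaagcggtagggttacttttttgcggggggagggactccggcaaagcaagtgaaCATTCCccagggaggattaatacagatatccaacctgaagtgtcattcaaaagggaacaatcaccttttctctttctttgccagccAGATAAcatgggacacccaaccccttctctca
Krt19 upstream peak: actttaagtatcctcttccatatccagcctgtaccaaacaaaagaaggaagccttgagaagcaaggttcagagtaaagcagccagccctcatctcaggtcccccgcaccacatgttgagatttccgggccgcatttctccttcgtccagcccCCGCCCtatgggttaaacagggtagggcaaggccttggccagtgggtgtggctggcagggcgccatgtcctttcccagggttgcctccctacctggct
Upk1b intron peak: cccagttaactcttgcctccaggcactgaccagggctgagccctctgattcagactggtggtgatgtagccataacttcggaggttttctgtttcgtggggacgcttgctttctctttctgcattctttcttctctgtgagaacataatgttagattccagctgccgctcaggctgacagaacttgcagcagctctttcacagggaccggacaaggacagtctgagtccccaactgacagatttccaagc
Tmem132d intron peak: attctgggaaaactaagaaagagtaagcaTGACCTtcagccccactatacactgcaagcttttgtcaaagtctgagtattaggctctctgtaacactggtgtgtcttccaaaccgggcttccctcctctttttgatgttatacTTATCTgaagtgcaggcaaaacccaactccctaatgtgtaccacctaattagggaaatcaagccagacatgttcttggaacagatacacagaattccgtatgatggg

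The *Upk3b* promoter, 60.8% G or C, held AGGTCA at position -155 and the reverse complement of GGAATG at -241, counted from the start. The *Dpp4* promoter, 43.6% G or C, held AGATAA at -32, the reverse complement of GGAATG at -118 and TATAAA at -227. Among the 32851 promoters of the table the same 250-base window held AGGTCA in 14.0%, GGAATG in 12.6%, AGATAA in 9.99% and TATAAA in 12.4%. Of the peak sequences, that of *Krt19* held GGGCGG on the minus strand, that of *Tmem132d* held AGGTCA and AGATAA on the minus strand, and that of *Upk1b* held none of the 6. In the middle 250 bases of 109183 peaks GGGCGG was found in 17.8%, AGGTCA in 19.6% and AGATAA in 14.8%. These letters occur widely, and a match is a description of the window only.

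Of the 9 genes, 8 reached the 20 UMIs set as a minimum, and all 8 were at least 4 times higher in surface epithelium-like nuclei than in all other nuclei together. Of all 19418 genes that reached the minimum, 2.31% passed that fold. The 9 were chosen with earlier results of these data known, so the count is a description and no test of the set. The median ratio was 27.4 over the 9 genes and 0.835 over all genes that reached the minimum. With the automatic Scrublet threshold for doublets the median over the 9 genes was 48.5. That threshold called 18.6% of barcodes, where 6.13% were removed here. Of the 9, 8 had their highest level in the class, and the exception was *Podxl*. The 8 include *Msln*, which was under the minimum and whose lead over the next class was not resolved. Of all genes that reached the minimum, 4.35% were highest in the class. Between 50.3% (*Podxl*) and 84.1% (*Upk1b*) of a gene's UMIs came from the 7.60% of nuclei in this class. Levels are given as the UMIs of a gene over all UMIs of a class on the counts-per-million scale (CPM), which are not divided by gene length, so they are compared between classes and not between genes.

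**Figure D1:**
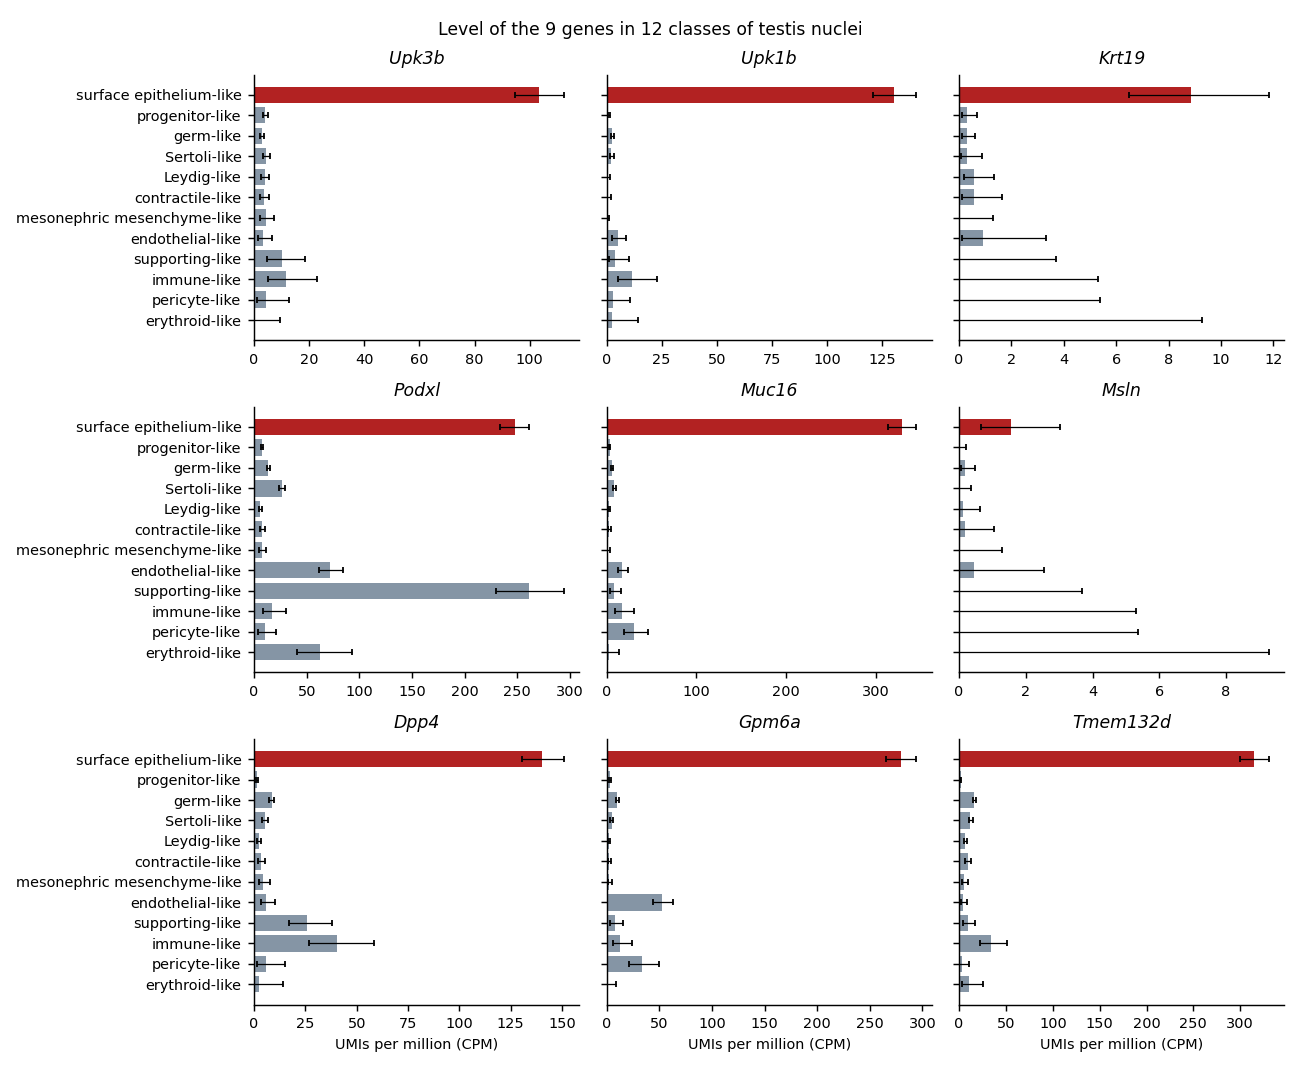
Level of each of the 9 genes (CPM of UMIs, linear axis from 0, a separate scale in each panel) in 12 classes of nuclei, with exact 95% Poisson intervals. The surface epithelium-like bar in red is the longest in 8 panels, and in the panel of *Podxl* the supporting-like bar (261 CPM) stands beside it (247 CPM).

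Of the uroplakins, *Upk1b* measured 130 CPM in surface epithelium-like nuclei (121 to 141, 676 UMIs) and 1.78 CPM in all others, a ratio of 73.3 (60.6 to 89.2). The treatment of doublets moved this ratio by more than its interval, to 44.7 with none removed and 218 with the automatic Scrublet threshold. The next class was immune-like at 11.5 CPM, from 8 UMIs, then endothelial-like at 5.02 CPM and supporting-like at 4.0 CPM, and these neighbours were not separated by their intervals. No UMI of *Upk1b* was found in the 386 mesonephric mesenchyme-like nuclei, where 3 counts would be 1.04 CPM. *Upk3b* measured 103 CPM (94.8 to 112, 536 UMIs) in the class and 3.77 CPM elsewhere, a ratio of 27.4 (23.7 to 31.9), which was 96.8 when the germ-like level of 2.73 CPM, the lowest among classes of at least 300 nuclei, was subtracted from both. The next class was immune-like at 11.5 CPM, which the surface epithelium-like level exceeded 8.98 times (4.52 to 20.9), then supporting-like at 9.99 CPM. Its level lay between 3.57 and 4.39 CPM in contractile-like, Leydig-like, progenitor-like, mesonephric mesenchyme-like and Sertoli-like nuclei, and at 2.73 CPM in germ-like nuclei. In those same 6 classes *Upk1b* ranged from 0 to 2.58 CPM. The immune-like level of *Upk1b* came from 2.90% of those nuclei and that of *Upk3b* from 4.35%, so a few nuclei set both.

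The keratin *Krt19* was sparse, with 71 UMIs in the library. Of these 46 fell in surface epithelium-like nuclei, where its level was 8.87 CPM (6.49 to 11.8) against 0.347 CPM elsewhere, a ratio of 25.5 (15.4 to 43.4). Next came endothelial-like nuclei at 0.913 CPM from 2 UMIs, and 5 classes held none. The level in surface epithelium-like nuclei was 9.71 times that of the next class, with an interval of 2.54 to 82.6 that shows how few counts stand behind it.

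The sialomucin *Podxl* was the least restricted. It measured 247 CPM (234 to 261) in surface epithelium-like and 261 CPM (230 to 294) in supporting-like nuclei, and the ratio of the former to the latter, 0.949, had an interval of 0.830 to 1.09, so the order of these classes was not resolved. Endothelial-like nuclei followed at 72.1 CPM and erythroid-like nuclei at 62.9 CPM, which were not separated from each other, then Sertoli-like nuclei at 26.4 CPM. Supporting-like nuclei had 91.5% of nuclei with a UMI of *Podxl*, or 46.3% at equal depth. *Podxl* was one of the genes by which the study itself recognised a cluster of this library, so its level in the class is no independent support for it.

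*Muc16* and *Msln*, a mucin and its binding partner, were far apart in the counts they gave. *Muc16* measured 329 CPM (314 to 345, 1707 UMIs) in surface epithelium-like nuclei and 5.57 CPM elsewhere, a ratio of 59.1 (52.9 to 66.0). With no doublet removed the ratio was 40.7, and with the automatic Scrublet threshold it was 166. Pericyte-like nuclei came next at 30.5 CPM (18.9 to 46.7), and endothelial-like and immune-like nuclei both at 17.3 CPM. The pericyte-like level came from 3 nuclei, as did the immune-like one. *Msln* gave 15 UMIs in the whole library, under the minimum. Of these, 8 were in surface epithelium-like nuclei (1.54 CPM, 0.666 to 3.04) and 7 elsewhere, and its ratio over the next class, 3.38, had an interval of 0.453 to 150. Whether *Msln* was higher in the class than in each other class could not be resolved at this depth.

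The other 3 membrane proteins were also read at lower levels in immune-like, endothelial-like or germ-like nuclei. *Dpp4* measured 140 CPM (130 to 151) in surface epithelium-like nuclei, 40.3 CPM (26.8 to 58.2) in immune-like and 26.0 CPM (17.0 to 38.1) in supporting-like nuclei. Its level was 3.48 times that in immune-like nuclei (2.39 to 5.28), the smallest lead among the 7 genes that were separated from their next class by the interval. *Gpm6a* measured 279 CPM (265 to 294) in the class, 53.0 CPM (43.8 to 63.5) in endothelial-like and 33.4 CPM (21.2 to 50.2) in pericyte-like nuclei, and was 5.28 times its level in endothelial-like nuclei. *Tmem132d* measured 315 CPM (300 to 331), followed by immune-like nuclei at 34.5 CPM (22.1 to 51.4) and germ-like nuclei at 16.0 CPM (14.3 to 17.8), and progenitor-like nuclei had 1.62 CPM. A UMI of *Gpm6a* was found in 33.0% of endothelial-like nuclei and one of *Dpp4* in 15.9% of immune-like nuclei, but the pericyte-like level of *Gpm6a* came from 4 nuclei and the immune-like level of *Tmem132d* came from 2.90% of nuclei.

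The genes lie, on the mm10 build of the files, at chr5:136038496-136046487 (*Upk3b*), chr16:38773184-38800328 (*Upk1b*), chr11:100140810-100148665 (*Krt19*), chr6:31519488-31563981 (*Podxl*), chr9:18495455-18674530 (*Muc16*), chr17:25748613-25754378 (*Msln*), chr2:62330073-62412231 (*Dpp4*), chr8:54954843-55060871 (*Gpm6a*) and chr5:127781630-128433077 (*Tmem132d*). *Gpm6a* overlaps 5 annotated genes on its own strand and *Tmem132d* overlaps 2. None of these is among the genes counted here, so no read was split or set aside for them. RNA from them may be counted as *Gpm6a* or *Tmem132d*, whose levels are uncertain to that degree. The other 7 genes overlap none on their own strand.

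The second question was whether the genes were read in the same nuclei. To compare nuclei of unequal depth, each was thinned at random to 2000 UMIs, which left out 5 of the 547 surface epithelium-like nuclei for being shallower. At that depth single genes were seen in 35.1% of these nuclei for *Tmem132d*, 34.1% for *Podxl*, 32.8% for *Muc16*, 23.4% for *Gpm6a*, 18.6% for *Upk1b*, 17.9% for *Dpp4*, 16.8% for *Upk3b*, 1.85% for *Krt19* and 0 of 542 for *Msln*, where 3 counts would be a share of 0.554% and the exact upper limit is 0.678%. That limit is on nuclei with a UMI at this depth, and before thinning 1.28% of the class had one for *Msln*. Without thinning the shares ran from 1.28% (*Msln*) to 70.6% (*Podxl*). In germ-like nuclei no gene exceeded 2.53% at equal depth (*Tmem132d*) and in Leydig-like nuclei none exceeded 1.07% (*Podxl*).

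At least 2 of the genes were found together in 283 of 542 surface epithelium-like nuclei, or 52.2% (47.9% to 56.5%) at 2000 UMIs, and in 76.8% without thinning. The share was 0.607% in germ-like nuclei (6 of 988), 0.266% in Leydig-like nuclei (2 of 751) and 0.425% in all other nuclei together. Above that background stood supporting-like nuclei with 9.76% (4.31% to 18.3%) and endothelial-like nuclei with 4.17% (1.15% to 10.3%). Read the other way, a nucleus with 1 gene or more was surface epithelium-like in 50.7% of 803 cases, with 2 or more in 91.0% of 311, with 3 or more in 95.4% of 174 and with 4 or more in all 84 (lower limit 95.7%). The 28 nuclei of other classes with 2 or more genes had a median of 13653 UMIs, and 14 of them lay above the automatic doublet threshold of Scrublet, against 13.7% of all other nuclei outside the class. For the 8 with 3 or more it was 7 of 8. With no doublet removed the share of surface epithelium-like nuclei with at least 2 genes was 49.5%, and with the automatic threshold 54.5%.

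**Figure D2:**
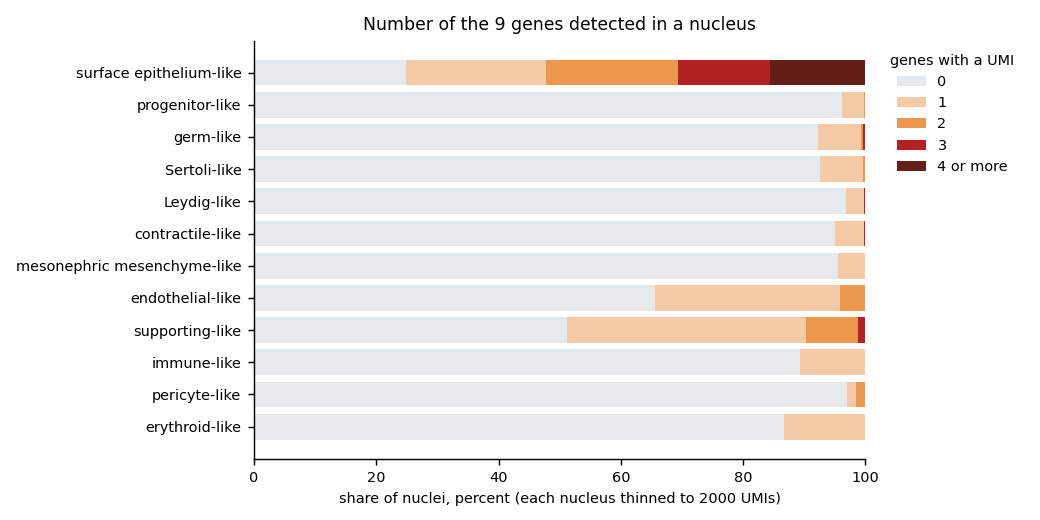
Share of nuclei (percent, linear axis) by the number of the 9 genes with at least 1 UMI after thinning to 2000 UMIs, for each of 12 classes. Surface epithelium-like nuclei with 2 or more genes make up 52.2%, and in supporting-like nuclei, the next class, the share is 9.76%.

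Within surface epithelium-like nuclei, pairs of genes were set against the product of their single shares. Of the 36 pairs, 21 had an expected number of at least 5 nuclei. Of these, 11 were found together more often than the product by their interval, none less often, and 10 had intervals that held 1. These intervals hold the expected number fixed, although it comes from the same nuclei. *Dpp4* and *Gpm6a* were together in 45 nuclei where 22.7 would follow from independence, 1.98 times as many (1.46 to 2.61). *Upk1b* and *Gpm6a* reached 1.94 times (1.44 to 2.56), *Upk3b* and *Upk1b* 1.83 times (1.25 to 2.56) and *Muc16* and *Dpp4* 1.76 times (1.34 to 2.25). Of the 6 pairs with *Tmem132d*, that with *Upk1b* was above the product (1.36 times, 1.01 to 1.77), and the other 5, from 0.972 times with *Upk3b* to 1.16 with *Podxl*, had intervals that held 1.

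The class was not uniform for these genes. At a finer resolution of 1.2, chosen after the data were seen and again without the 9 genes, its 547 nuclei fell into 3 groups, A with 358, B with 97 and C with 92 nuclei. Among genes other than the 9, A was led within the class by *Barx2* and *Ntng2*, B by *Itga8*, *Emcn* and *Flt1*, and C by *Calcr*, *Cdh18*, *Cdh8* and *Pax8*, the last also a leading gene of the supporting-like class. Against all other nuclei, the leading genes of C included *Gm13561*, which overlaps *Dpp4* and was not left out of the clustering. At this resolution the markers gave A and C the name surface epithelium-like. They gave B the name contractile-like. *Myh11* was at 43.0 CPM in B against 8.85 in A, *Acta2* at 40.4 against 18.5 and *Cnn1* at 8.07 against 0.285 (6 UMIs and 1). *Tagln* was at 14.8 against 12.3 CPM, with overlapping intervals, and *Mylk* was lower (215 against 273 CPM). No contractile marker was among the leading genes of B, but no surface epithelium-like marker was among those of A or C either. The group is called only B here. All 5 naming markers were lower in B than in A, from 0.0808 of the level in A for *Lrrn4* to 0.507 for *Pdgfc*, which still measured 656 CPM in B. Clusters from RNA alone placed 334 of 358 nuclei of A, 89 of 92 of C and only 3 of 97 of B in the surface epithelium-like class, while clusters from ATAC alone placed 346, 84 and 65 of them there.

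Group B was low in 7 of the genes. *Muc16* measured 5.38 CPM in B, 275 CPM in A and 787 CPM in C. *Dpp4* had a single UMI in B. *Upk1b* was at 6.73, *Upk3b* at 10.8, *Podxl* at 30.9 and *Gpm6a* at 39.0 CPM there, and *Krt19* was not found. *Tmem132d* measured 153 CPM (126 to 184) in B and 392 CPM in A. All 8 genes with enough UMIs were at least 2 times lower in B than in A, against 9.6% of all genes compared, and none was 2 times higher, against 4.68%. Of the 7 that could be compared between C and B, 6 were at least 2 times higher in C and none lower, against 9.6% and 6.3% of genes, and *Tmem132d* did not differ beyond counting error (interval of the ratio 0.793 to 1.31). At least 2 genes were together in 1.03% of B, 57.3% of A and 87.6% of C at 2000 UMIs. Median depth was 6709 UMIs in B, 8076 in A and 7853 in C, and 12.4% of B, 8.66% of A and 10.9% of C lay above the automatic doublet threshold. Of the mesonephric mesenchyme-like markers, *Itga8* was at 331 CPM in B and 15.1 in A and *Ntrk3* at 80.7 and 15.4, while *Rxfp2* had 2 UMIs in B. Of the endothelial-like markers, *Kdr* was at 120 and 62.2 CPM, *Pecam1* at 13.5 and 7.13 CPM, and *Emcn* had 29 UMIs (39.0 CPM) and 7. *Egfl7* and *Sox17* had no UMI in B and *Cdh5* had 3. Of the supporting-like markers, *Ncam1* was at 2016 CPM in B and 599 in A, *Pax8* had 2 UMIs in B and *Aldh1a3* none. Summed pericyte-like markers were 98.2 CPM in B and 44.5 in A. Summed progenitor-like markers were 1273 and 1231 CPM, with *Pdgfra* at 545 and 261 CPM and *Wnt5a* at 467 and 676 CPM. The summed surface markers were 769 CPM in B, 2043 in A and 1836 in C. The part of these markers in the difference was not tested.

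Groups A and C differed in some naming markers and in most of the 9 genes. Of the markers, *Aldh1a2* (C over A 1.03, 0.932 to 1.14) and *Bnc1* (0.984, 0.814 to 1.18) had intervals that held 1, *Rspo1* (2.69, 2.11 to 3.42) and *Lrrn4* (1.47, 1.10 to 1.95) were higher in C, and *Pdgfc* (0.749, 0.696 to 0.804) was lower. Of the supporting-like markers, *Pax8* was at 75.5 CPM in C and 2.28 in A, *Ncam1* at 906 and 599, and *Aldh1a3* had no UMI in either. Summed progenitor-like markers were lower in C than in A (551 against 1231 CPM), as were contractile-like markers (205 against 312 CPM). The contractile-like sum was mostly *Mylk* (170 against 273 CPM), and *Myh11* went the other way (13.8 against 8.85 CPM, intervals overlapping). The part of these markers in the differences between A and C was not tested. *Dpp4* was 5.99 times higher in C than in A (5.14 to 6.98), *Gpm6a* 4.54 times (4.08 to 5.04) and *Muc16* 2.86 times (2.60 to 3.16). *Upk1b* and *Upk3b* differed less, by 1.71 and 1.47 times, as did *Podxl*, by 1.31 times. *Tmem132d* went the other way, at 156 CPM in C and 392 CPM in A, a ratio of 0.399 (0.334 to 0.473). For *Krt19* the interval of 0.385 to 1.91 held 1. Thus 3 genes were at least 2 times higher and 1 at least 2 times lower in C, against 4.41% and 5.64% of all genes compared. Other genes known from mesothelium went either way. *Lhx9* was at 67.0 CPM in C and 367 CPM in A, and *Emx2* at 57.4 and 120 CPM, but *Pkhd1l1* was at 133 and 49.9 CPM, *Krt7* at 29.8 and 17.7 CPM and *Cdh3* at 321 and 320 CPM. At 2000 UMIs *Muc16* was seen in 70.8% of C and 32.3% of A, *Gpm6a* in 62.9% and 19.4%, and *Dpp4* in 52.8% and 14.0%, whereas *Tmem132d* was seen in 19.1% and 44.1%.

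**Figure D3:**
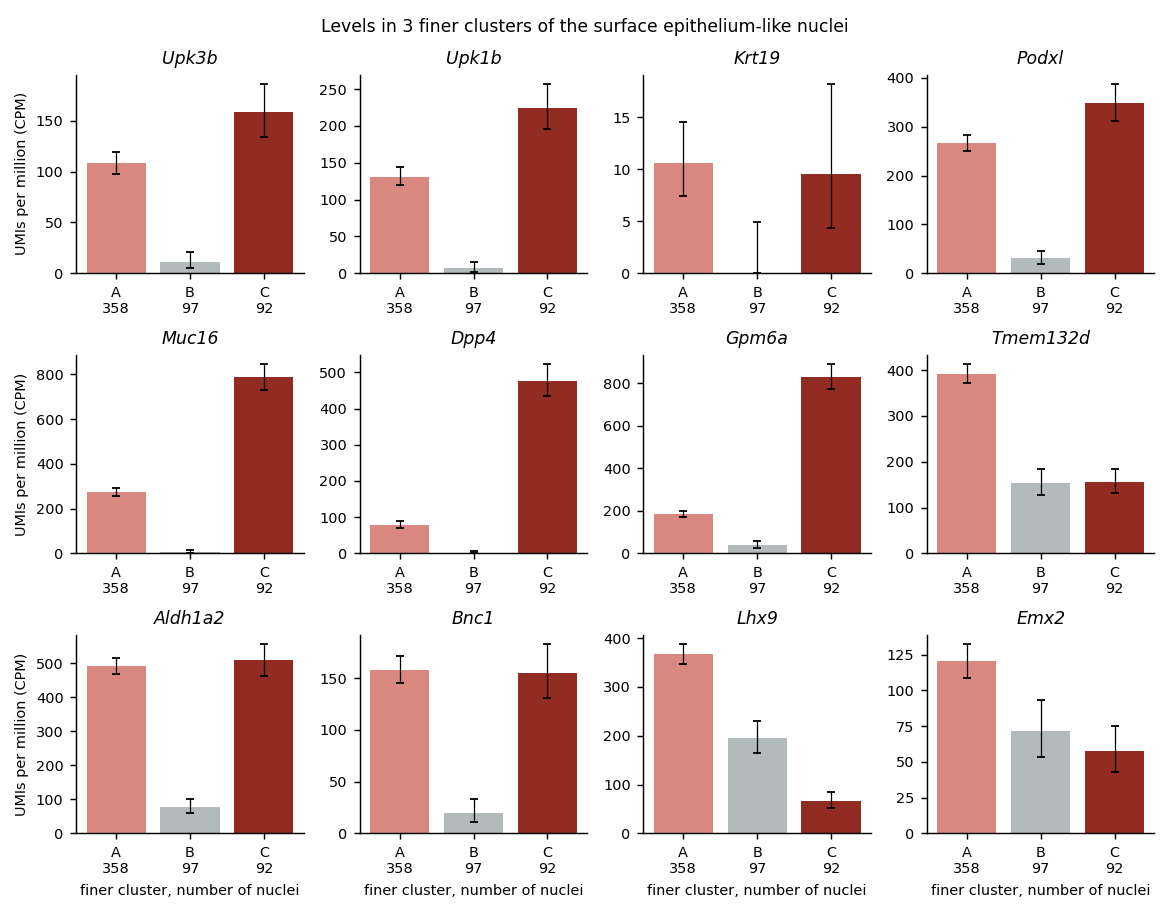
Level (CPM of UMIs, bars from 0, a separate scale in each panel) in finer clusters A, B and C of the surface epithelium-like nuclei, with exact 95% Poisson intervals and the number of nuclei below each bar. *Muc16*, *Dpp4* and *Gpm6a* are highest in C, *Tmem132d* is highest in A at 392 CPM, and B lies below A in every panel.

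Within the groups, most of the joint detection was no longer apart from the product of single shares. In A, 3 of 21 pairs were above it by their interval (*Upk1b* with *Gpm6a* at 1.77 times, *Upk1b* with *Muc16* at 1.52 and *Upk3b* with *Muc16* at 1.5), against 11 of 21 in the whole class. In C it was 0 of 20 pairs, and B had no pair with an expected number of 5. The median ratio over pairs was 1.39 in the class, 1.14 in A and 1.08 in C. Groups A and C have fewer nuclei than the class, so their intervals are wider.

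**Figure D4:**
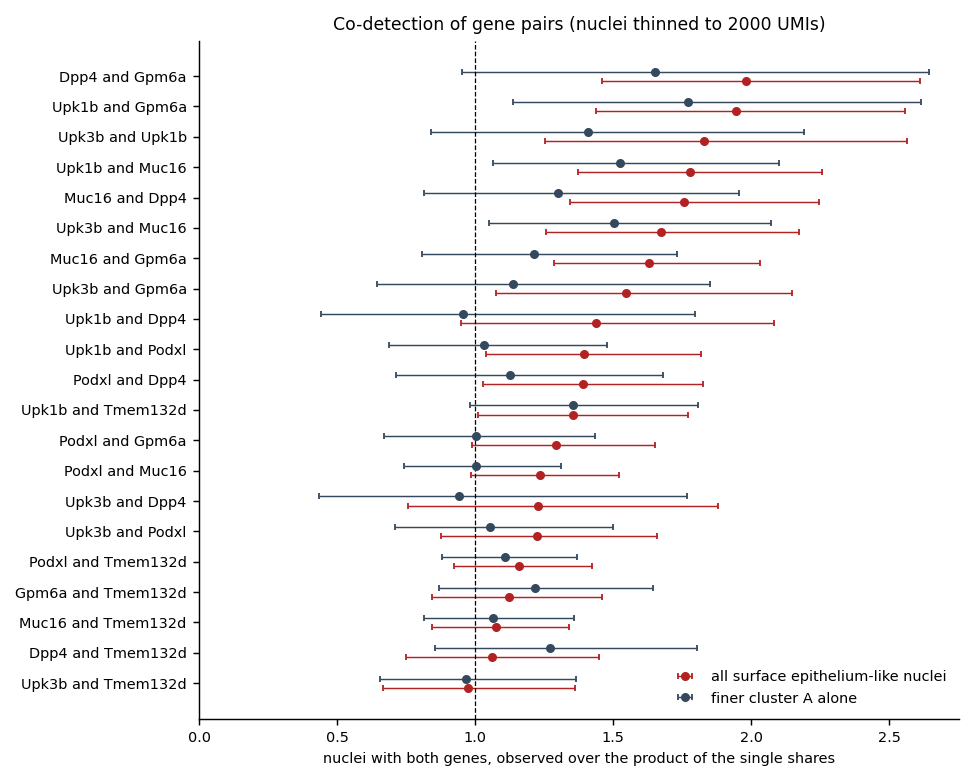
Number of nuclei with both genes of a pair over the number from the product of their single shares (linear axis, dashed line at 1), for the 21 pairs with at least 5 expected nuclei in the class. The 95% intervals are those of the number with both, with the expected number held fixed. Red points are all 542 thinned surface epithelium-like nuclei and dark points the 356 of finer cluster A, with medians of 1.39 and 1.14.

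Chromatin at the promoters was open to a lesser and uneven degree. A promoter peak, within 1 kb of the start given in the gene table, was present for 6 of the 9 genes. Cuts there, on the same scale over all cuts at peaks (CPM of cuts), were at least 2 times higher in surface epithelium-like nuclei for 4 of the 6 (*Upk3b*, *Upk1b*, *Krt19* and *Tmem132d*), against 2.98% of the 18593 genes with a promoter peak of at least 20 cuts. Cuts mostly come in pairs from a fragment, so intervals are given for unique fragments with an end within 1 kb of the start, over all fragments at peaks (CPM of fragments). For *Upk3b*, whose promoter sequence opens the list above, the peak at chr5:136038018-136038937 held 37.5 CPM of cuts in the class and 2.69 elsewhere, a ratio of 13.9, and fragments gave a ratio of 8.99 (5.91 to 13.5). Over all settings its promoter ratio ran from 5.40 to 18.0. For *Upk1b* the peak at chr16:38799843-38800733 had a ratio of 7.56 in cuts and 6.88 in fragments (4.05 to 11.4). *Krt19* had 2 peaks with a ratio of 6.41 together and 5.58 in fragments (3.20 to 9.37). These ratios are over all other nuclei together. The *Krt19* promoter had 22.9 CPM of fragments in the class (14.2 to 35.0) and 22.4 in endothelial-like nuclei (7.26 to 52.2, 5 fragments). Supporting-like nuclei had 17.6 (3.63 to 51.4, 3 fragments), so the class was not separated from these 2 small classes.

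Genes with strong RNA were not always marked at the start. *Dpp4* had a ratio of 26.9 in RNA, which ran from 22.3 to 48.5 over all settings. At its promoter it had 11.0 CPM of cuts in the class and 7.44 elsewhere, a ratio of 1.47, and 1.37 in fragments (0.690 to 2.48). The *Podxl* promoter was read in each of the larger classes, with 53.4 CPM of fragments in surface epithelium-like nuclei (39.5 to 70.5), 28.6 in progenitor-like (24.2 to 33.5) and 30.8 in germ-like nuclei (24.3 to 38.4), while pericyte-like and immune-like nuclei gave 1 and 2 fragments. Endothelial-like nuclei were at 53.7 CPM of fragments (27.7 to 93.8, 12 fragments) and supporting-like nuclei at 35.2 (12.9 to 76.6, 6 fragments). Their intervals overlapped that of surface epithelium-like nuclei. The *Podxl* promoter had a ratio over all other nuclei in fragments of 1.82 (1.32 to 2.46). The *Tmem132d* promoter gave 17.4 CPM of fragments in the class (9.96 to 28.3) and 27.2 in germ-like nuclei (21.2 to 34.5), with overlapping intervals. Germ-like RNA of *Tmem132d* was 16.0 CPM against 315 CPM in the class. The promoter ratio over all other nuclei was 1.90 in fragments (1.05 to 3.21) and 2.18 in cuts. The latter was below the fold of 2 under several other settings (range 1.42 to 2.26).

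The other 3 genes had no called peak within 1 kb of the start. At *Muc16* fragments were nonetheless more frequent in the class than in all other nuclei together, with 10.9 CPM of fragments against 1.57. These were 10 and 21 fragments, a ratio of 6.96 (2.93 to 15.4), and most of their ends lay before the start. Sertoli-like nuclei held 10 of the 21, at 6.44 CPM of fragments (3.09 to 11.8). That interval overlapped the interval of the class, so the class was not separated from Sertoli-like nuclei. At *Msln* there were 7 fragments in the class, a ratio of 1.97 (0.754 to 4.35), and at *Gpm6a* 3 fragments, a ratio of 1.99 (0.382 to 6.63), so no difference was detectable at this depth. The RefSeq table gives *Gpm6a* a second start far upstream of the one used here.

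**Figure D5:**
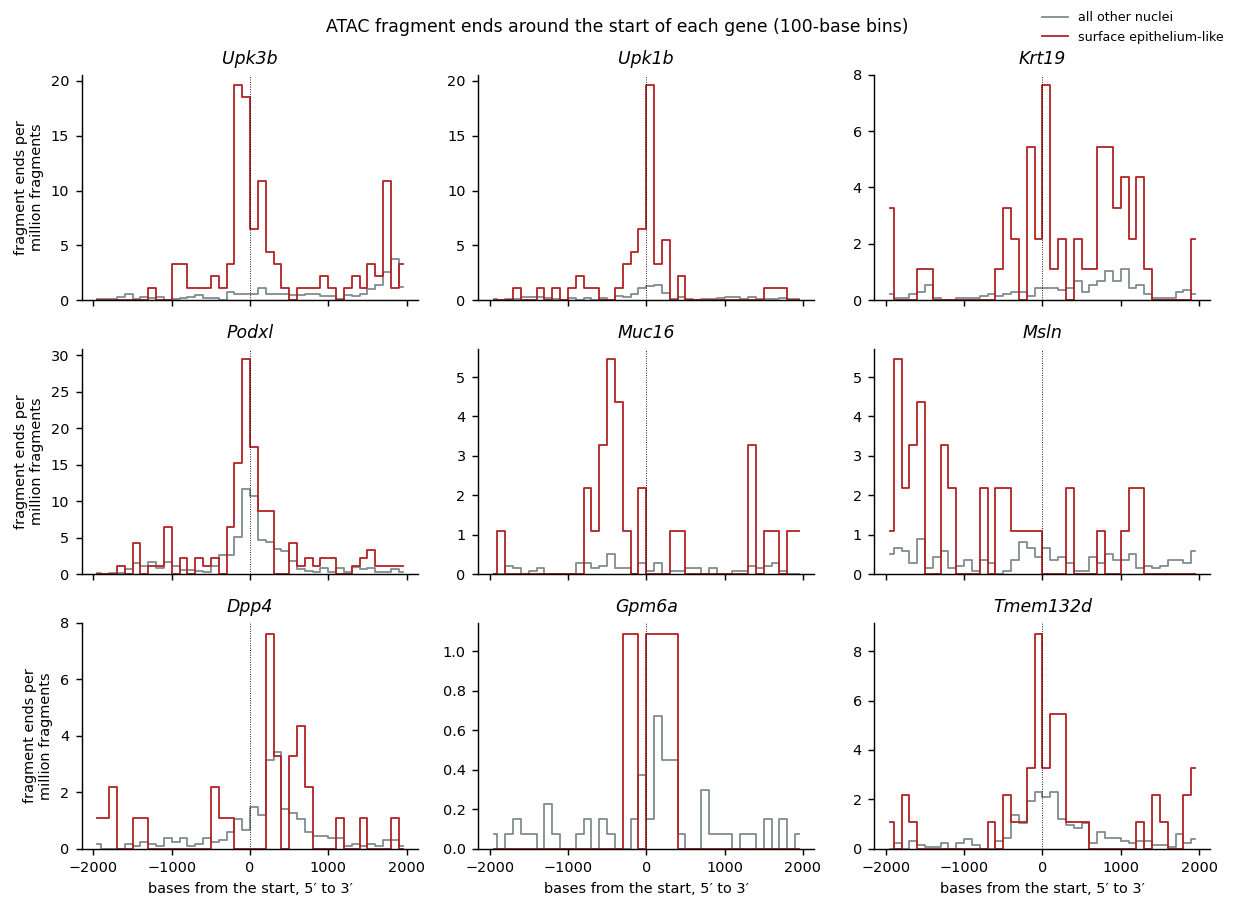
Fragment ends over all fragments at peaks (CPM scale) in 100-base bins (linear axes, a separate scale in each panel) from 2000 bases before to 2000 bases after the start of each gene, in surface epithelium-like nuclei (red) and all other nuclei (grey). The red line stands above the grey at the starts of *Upk3b*, *Upk1b* and *Krt19*, and both lines peak at the start of *Podxl*. The panel of *Gpm6a* rests on few fragments (3 in the class with an end within 1 kb).

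Peaks were also examined from 50 kb before each gene to 50 kb past its end. Of 78 peaks there with at least 50 cuts, 7 of them at promoters, 30 were at least 2 times and 14 at least 4 times more cut in the class, against 9.83% and 1.93% of the 100009 such peaks of the genome. Of the 38 peaks that were left out of the clustering, 20 and 11 passed these folds. The other 40 lay more than 10 kb from the genes and had taken part in forming the class, and 10 and 3 of them passed. The peak with the largest ratio was chosen for each gene, which favours high values. For *Krt19* it lay upstream, at -22051 bases from the start, at chr11:100167766-100168578, in intergenic sequence, with 50.2 CPM of cuts in the class and 3.52 elsewhere, a ratio of 14.3. It was among the peaks used in the clustering, so its ratio is no independent value. This is the peak whose middle is printed above. For *Upk1b* it lay 6887 bases past the start, with 25.4 against 1.98 CPM of cuts and a ratio of 12.8. For *Tmem132d* it lay 14737 bases past the start, with 15 against 1.11 and a ratio of 13.5. For *Upk3b* it was the promoter peak itself. *Msln*, which had almost no RNA, had a peak upstream, at -2660 bases from the start, at chr17:25756596-25757481 with 27.7 CPM of cuts in the class and 3.56 elsewhere, a ratio of 7.78. For *Podxl* the largest ratio was 6.75, in a peak at -50025 bases from the start that lay in the gene model *Gm43154* and was also used in the clustering, and for *Dpp4* it was 6.36, in an intron, from 17 cuts. For *Muc16* it was 1.90, with an interval of 0.664 to 4.47, and *Gpm6a* had no peak with 50 cuts.

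In the finer groups these peaks rested on few cuts. The *Krt19* upstream peak measured 60.8 CPM of cuts in A, 19.1 in B and 42.4 in C, and the *Upk1b* intron peak 24.7, 19.1 and 35.3. The *Upk3b* promoter peak had 39 cuts in A, none in B and 26 in C, or 34.4, 0 and 91.9 CPM of cuts. Fragments with an end within 1 kb of the *Upk3b* start gave 41.6 CPM in A (26.9 to 61.4) and 86.6 in C (46.1 to 148). In B they gave 11.9 (1.45 to 43.2, 2 fragments), and the intervals of A and B overlapped. The *Dpp4* intron peak had all its 17 cuts in A, although *Dpp4* RNA was highest in C. These values are descriptions.

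Genes related to the 9 were examined as 3 lists. Of 20 paralogues, 16 reached 20 UMIs and none was at least 4 times higher in the class, where 2.31% of all genes were, so a list of this size could show few or none. *Tmem132a* and *Podxl2* had their highest level in the class. The paralogues had a median ratio of 0.828 against 0.835 over all genes. The largest ratios were those of *Tmem132a* (2.91), *Fap*, the closest relative of *Dpp4* (2.65), *Podxl2* (1.65) and *Tmem132b* (1.13). The smallest were *Muc4*, with 20 UMIs and none in the class, *Gpm6b* (0.264), which was highest in Sertoli-like nuclei at 767 CPM, *Cd34* (0.302), a relative of *Podxl* highest in endothelial-like nuclei, and *Dpp6* (0.312). The other bladder uroplakins *Upk2* and *Upk3a* gave 5 and 0 UMIs in all nuclei kept, and *Upk1a* 66 UMIs with a ratio of 0.895 (0.236 to 2.41).

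Of 7 genes whose proteins bind those of the 9, none was at least 4 times higher, as 2.31% of all genes were. Their median ratio was 1.69, against 0.835 over all genes. *Ezr* and *Slc9a3r1*, which link podocalyxin to the actin cortex, had ratios of 3.98 (3.52 to 4.50) and 3.68 (2.91 to 4.61), and *Krt8*, a keratin that pairs with *Krt19*, 3.06 (1.54 to 5.64) from 72 UMIs. *Slc9a3r1* was highest in the class, but *Ezr* was highest in erythroid-like nuclei (93.1 against 65.9 CPM in the class). *Krt8* was highest in Sertoli-like nuclei (3.20 against 2.51 CPM). *Ada*, whose protein docks on DPP4, had a ratio of 0.323. *Ezr* and *Slc9a3r1* were higher in C (133 and 47.9 CPM) than in A (59.1 and 13.7 CPM), whereas *Msn* (39.4 and 39.9 CPM) and *Rdx* (226 and 245 CPM) were not.

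Of 18 other genes known from mesothelium, 15 reached the minimum and 7 were at least 4 times higher in the class, where 2.31% of all genes were. These genes were chosen with earlier results of these data known and were not left out of the clustering, so the counts are descriptions. Their median ratio was 3.06, against 0.835 over all genes, and 6 were highest in the class, against 4.35%. The largest were *Krt7*, a keratin (32.1), *Crb2*, an apical polarity protein (28.8), *Emx2* (8.32) and *Krt18* (6.17). *Wt1*, the transcription factor most used to mark mesothelium, had 1026 CPM in the class and 224 CPM elsewhere, a ratio of 4.58. *Pkhd1l1*, also past the fold, was at 59.4 CPM in the class but at 911 CPM in erythroid-like nuclei. The smallest were *Cdh1*, epithelial cadherin, at 3.47 CPM in the class and highest in germ-like nuclei (ratio 0.094), *C3* (1.12), *Osr1* (1.48) and *Tbx18* (1.54). *Calb2*, *Muc1* and *Slpi*, which mark mature mesothelium, were under the minimum with 7, 3 and 14 UMIs.

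Genes of like pattern were sought among 15219 genes with at least 100 UMIs, by the correlation of log2(CPM + 1) over the 12 classes with the mean of the 9. The highest were *Pcnx2* (r = 0.957), *Ankfn1* (0.939), *Lrrn4* (0.935), *Car12*, a carbonic anhydrase at the cell surface (0.919), and *Crb2* (0.918). All 5 were highest in surface epithelium-like nuclei, at ratios between 14.4 and 28.8, which the choice by this mean favours. *Lrrn4* is also a naming marker of the class. Among the 9 genes, which enter that mean themselves, r ran from 0.706 for *Podxl* to 0.971 for *Upk1b*. Classes share 1 library and the value is a description.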

How the data were processed

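Nuclei of whole E14.5 testes were read by 1 RNA and 1 ATAC library of the same barcodes. Per the labels, the authors used Cell Ranger ARC 2.0.1 and mm10. The deposited matrix holds counts, UMIs for each gene and cut sites for each peak, and the deposited fragment list holds unique fragments with positions. Neither was normalized or corrected for free RNA.

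Barcodes were kept with over 500 genes, under 10% mitochondrial, 10% ribosomal and 0.5% haemoglobin UMIs, between 250 and 25000 fragments at peaks and over 20% of fragments at peaks, which left 7667 of 9833. Scrublet (scanpy 1.11.5) scored doublets, of which the highest 6.13% of barcodes (470) were removed. Its automatic threshold, used only as another setting, called 18.6% (1428). Among barcodes past stricter minimums of genes and fragments the automatic threshold called 0, so it was not stable. The remaining 7197 nuclei were clustered with Seurat 5.3.0 (R 4.3.3) on both assays, leaving out the 9 genes and 40 peaks, and clusters were named from fixed markers. The study's own doublet caller, free RNA correction and blacklist were not used here. Intervals (scipy 1.17.1) are exact Poisson for CPM, Clopper-Pearson for shares and exact conditional binomial for ratios of levels, cuts or fragments. The code for these ratio intervals was tested on simulated data. For pairs of genes, the Clopper-Pearson interval of the share with both was divided by the expected share, held fixed. The pair intervals were not tested on simulated data. With 1 library there is no test and no p-value. Genes needed 20 UMIs and promoter peaks 20 cuts. The 9 genes are all named; of each list up to 4 genes with the largest and the smallest ratios were named, and the 5 closest patterns. *Wt1*, *Lhx9*, the uroplakins of the bladder and genes under the minimum were named after their values were seen. Members and lists were chosen with earlier results of these data known.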

Additional observations from a re-analysis of the deposited data

How the results depend on the processing

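Results were recomputed under 18 other settings and under finer clusters at resolution 1.2, the latter chosen after seeing the data. The number of genes past both the minimum and the fold of a setting stayed between 7 and 9. That of genes highest in the class stayed between 8 and 9, and that of promoters past the fold between 3 and 5. Level ratios moved beyond their counting intervals in 41 of the recomputed values and did not in 49. They ran from 44.7 to 218 for *Upk1b*, 40.7 to 166 for *Muc16*, 21.7 to 96.8 for *Upk3b* (the upper end with the lowest level among classes of at least 300 nuclei subtracted, and 33.6 without that setting), 12 to 20.6 for *Podxl*, 22.3 to 48.5 for *Dpp4*, 28.3 to 69.6 for *Gpm6a*, 27.8 to 56.2 for *Tmem132d* and 18.4 to 40.7 for *Krt19*, and the promoter ratio of *Upk3b* from 5.40 to 18.0. The share of surface epithelium-like nuclei with at least 2 of the genes, 52.2%, was 65.3% with clusters from RNA alone, 32.2% thinned to 1000 UMIs, 69.8% thinned to 4000 UMIs, 76.8% with no thinning and 61.0% at resolution 1.2. The share of nuclei in the class, 7.60%, was 5.92% with clusters from RNA alone and 6.52% at resolution 1.2. Thinning changes the depth by construction, and for the other settings the cause was not tested. No ratio of the class to all other nuclei reversed. With no doublet removal, with clusters from RNA or ATAC alone and at resolution 1.2, *Podxl* too was highest in the class, so its order with supporting-like nuclei turned. No paired analysis was possible because each assay has 1 library, and no replicate could be left out. Depth limits *Msln* (15 UMIs), *Krt19* (71 UMIs) and promoter fragments of *Gpm6a*.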
